A study of Mus musculus with 18 samples.

Results

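The antioxidant genes described here were 10 mouse genes of the 46078 Ensembl genes in the count table: the superoxide dismutases Sod1 and Sod2, catalase (Cat), and the peroxide-removing, thioredoxin, glutathione, quinone and haem enzymes Prdx1, Gpx4, Txnrd1, Gclc, Gclm, Nqo1 and Hmox1. Members were chosen by symbol from the superoxide dismutase and NRF2-type antioxidant genes. Sod2 itself was selected on its higher level on soft substrates in these same libraries, so its soft minus stiff values are given as a description with no test. All 10 genes passed the filter on low counts and were among the 13438 protein-coding genes tested. The cells were mESCs (mouse embryonic stem cells) of the established E14 line, from a 129 background, that had spent 24 h in serum with LIF on fibronectin-coated StemBond hydrogels, polyacrylamide gels in which the concentration of the co-factor AHA sets how firmly extracellular matrix is tethered. Soft gels were near 750 Pa and stiff gels near 160 kPa, and each stiffness was made with 16 mM AHA (low), 48 mM AHA (mid) or 80 mM AHA (high), which gave 6 groups of 3 libraries. All groups shared the line, the coating, the medium and the time, and the labels did not say whether libraries of a group came from separate cultures, so the tests measure the spread between these libraries, which may be technical.

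Superoxide is a by-product of respiration. SOD2 (manganese superoxide dismutase) converts it to hydrogen peroxide in the mitochondrial matrix and SOD1 does so mainly in the cytosol. The peroxide is then removed by catalase, peroxiredoxins and glutathione peroxidases, which draw on the thioredoxin and glutathione systems. Many of these enzymes are known targets of the transcription factor NRF2 (Nfe2l2), which acts through antioxidant response elements (AREs) and is held in check by KEAP1. FOXO factors such as FOXO3 are known activators of Sod2 and Cat in other cells.

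Gene counts per library ranged from 5850621 to 9290261. ERCC spike-in RNAs took 0.607 to 0.725% of counts in 17 libraries and 1.37% in the first soft library at high AHA. The fits therefore omitted that library, leaving 8 soft and 9 stiff libraries. Levels are given in CPM, counts scaled to a common total of the tested genes with TMM. A total of 5 of 6 pluripotent cell markers were called higher on soft substrates (summed 1602 to 1764 CPM against 1423 to 1531 CPM on stiff), so the labelled cell type carried its defining markers in both conditions. The 6 primitive endoderm markers summed to 31.7 to 45.4 CPM on soft and 32.8 to 44.8 CPM on stiff, and edgeR called 0 of them, with 0 at an unadjusted p under 0.05. The 6 trophoblast markers summed to 90.2 to 120.0 CPM on soft and 113.6 to 132.0 CPM on stiff, and 2 of the 5 tested (Krt7 and Hand1) were called lower on soft. The 6 fibroblast markers summed to 111.9 to 191.8 CPM on soft and 161.8 to 230.4 CPM on stiff. Of the 4 tested, 1 (Col1a1) was called lower on soft. Only Lum and Dcn of the 6 had a median count of 0, and Col1a1 had the highest mean level of the list. The part of these marker differences in the values of the antioxidant genes was not tested. In bulk RNA, a change in the share of cells that express a gene and a change in its level per cell cannot be told apart.

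To place the genes beside the sequence from which their transcripts start, promoters from RefSeq (GRCm38.p6, 250 bases before to 50 after each start) were searched on both strands for an ARE core (TGACNNNGC), a GC box (GGGCGG, the letters bound by SP1) and a FOXO motif (TGTTTAC). Of the 10 genes, 8 matched the promoter table with 13 promoters. Hmox1 and Gclc had no entry. A GC box stood in 10 of the 13 promoters and in at least 1 promoter of each of the 8 genes, against 35.7% of 32851 promoters in the table. The ARE core stood in 4 of the 13 promoters, 1 each of Sod1, Prdx1, Txnrd1 and Gclm, against 12.4% of all promoters, and the FOXO letters stood in 0 of the 13, against 3.65% of all promoters. Beside so low a share, 0 of 13 says little. Txnrd1 had 3 and Gpx4 4 of these promoters, some of which overlap. The Sod2 promoter (GRCm38.p6, chr17:13007589-13007888, plus strand) lies inside the annotated gene and is shown because Sod2 had the largest difference of the 10 genes, with its 4 GC boxes in capitals, which began 124, 109, 91 and 67 bases before the start.
Sod2: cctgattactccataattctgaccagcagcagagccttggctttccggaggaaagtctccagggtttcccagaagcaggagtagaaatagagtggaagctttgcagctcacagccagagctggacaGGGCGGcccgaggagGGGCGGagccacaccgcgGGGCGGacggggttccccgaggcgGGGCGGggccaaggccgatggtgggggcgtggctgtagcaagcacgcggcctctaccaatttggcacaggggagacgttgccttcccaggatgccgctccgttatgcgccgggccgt

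The second Txnrd1 promoter in the table (GRCm38.p6, chr10:82858956-82859255, plus strand) is shown because Txnrd1 moved the other way, with its ARE core in capitals.
Txnrd1: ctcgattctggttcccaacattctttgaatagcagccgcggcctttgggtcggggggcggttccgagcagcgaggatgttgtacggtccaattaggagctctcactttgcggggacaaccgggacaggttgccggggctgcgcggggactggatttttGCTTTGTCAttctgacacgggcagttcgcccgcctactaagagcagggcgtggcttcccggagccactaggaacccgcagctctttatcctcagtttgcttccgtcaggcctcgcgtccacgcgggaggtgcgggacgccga

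The stretches around the ARE cores of the other 3 genes are shown for comparison, again with the core in capitals. In all 4 genes the core lay on the strand opposite to the gene, so the capitals read as its reverse complement. It began 56 bases before the start in Sod1, 133 in Prdx1, 92 in Txnrd1 and 134 in Gclm.
Sod1: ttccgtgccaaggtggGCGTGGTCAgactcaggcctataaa
Prdx1: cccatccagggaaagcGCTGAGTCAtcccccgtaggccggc
Gclm: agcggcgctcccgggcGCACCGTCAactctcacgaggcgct

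A match is a description of these letters, not of a bound site, and sites outside the windows were not searched. The windows of Sod2, Cat, Nqo1 and Gpx4 held 0 ARE cores. Sod1, which shares the reaction of Sod2 in another compartment, held 1 ARE core and 4 GC boxes.

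Sod2 (ENSMUSG00000006818, GRCm38 chr17:13006846-13040063, plus strand) was higher on soft than on stiff substrates at each AHA concentration. On soft substrates its level was 115.7, 133.9 and 119.6 CPM at low AHA, 121.4, 139.7 and 136.9 CPM at mid AHA, and 124.4 and 118.2 CPM at high AHA. On stiff substrates it was 93.0, 109.4 and 95.5 CPM at low AHA, 103.5, 109.2 and 92.9 CPM at mid AHA, and 90.4, 103.3 and 97.6 CPM at high AHA. The lowest soft library lay above the highest stiff library, so the 8 soft and 9 stiff libraries did not overlap. This held for 170 of the 13438 genes tested (1.27%) and, among the 10 antioxidant genes, for Sod2 alone.

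The mean Sod2 level was 126.2 ± 9.27 CPM on soft (SD, n = 8) and 99.4 ± 7.16 CPM on stiff substrates (SD, n = 9), a ratio of geometric means of 1.27. The averaged difference was 0.34 on the log2 scale (SE 0.043, 95% interval 0.26 to 0.43), and the differences at low, mid and high AHA were 0.32, 0.38 and 0.33. These are the values on which Sod2 was selected. The selection kept 16 genes, those past the threshold and higher on soft substrates at all 3 AHA concentrations that averaged 1 CPM or more, so passing it is no result for Sod2. Of these Sod2 stood 5th by the averaged difference, after Trh (0.56), Kit (0.43), Nanog (0.38) and Esrrb (0.35), and just ahead of Lama1 (0.33). Among all tested genes it stood 504th by the same difference.

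The groups ordered from soft, mid AHA (132.7 ± 9.88 CPM, SD, n = 3) through soft, low AHA (123.1 ± 9.57 CPM, n = 3) and soft, high AHA (121.3 ± 4.41 CPM, n = 2) to stiff, mid AHA (101.9 ± 8.25 CPM, n = 3), stiff, low AHA (99.3 ± 8.85 CPM, n = 3) and stiff, high AHA (97.1 ± 6.48 CPM, n = 3). The only neighbours in this order whose libraries did not overlap were soft, high AHA and stiff, mid AHA, which were 19.4 CPM apart with a pooled SD of 6.61 CPM. Every other step was 9.60 CPM or less, under the pooled SD of the neighbours at 9.72 CPM or less, and its libraries overlapped. The selection asked for a higher level on soft substrates at low and at high AHA, so the AHA differences of Sod2 are also given with no test. High minus low AHA gave -0.020 on the log2 scale on soft (95% interval -0.17 to 0.13) and -0.030 on stiff substrates (95% interval -0.18 to 0.12).

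The left-out library of the soft, high AHA group was not used in the fits that picked Sod2. On a scale over all 18 libraries its Sod2 level was 129.1 CPM, within the range of the other soft libraries (115.8 to 139.8 CPM) and above the 9 stiff libraries (90.4 to 109.5 CPM). Both ranges come from the libraries on which Sod2 was selected. The left-out library, as 1 library with a high ERCC share, carries no test.

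**Figure D1:**
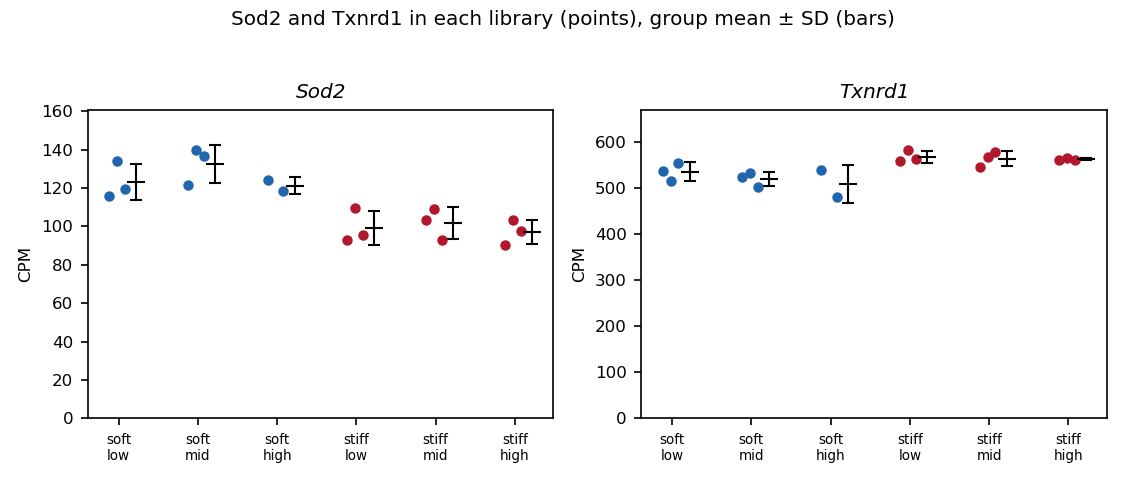
CPM of Sod2 (left) and Txnrd1 (right) on the y axis, from 0, in each of the 6 groups on the x axis (stiffness above, AHA concentration below). Points are libraries (blue soft, red stiff) and bars are the group mean ± SD, with 2 libraries in soft high and 3 in every other group. The soft Sod2 points all lie above the stiff ones, and 7 of the 8 soft Txnrd1 points lie below the stiff ones.

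Sod1 (ENSMUSG00000022982, chr16:90220754-90226329, plus strand), the cytosolic dismutase, did not show the separation seen for Sod2. Its level ran from 267.9 to 299.3 CPM on soft (median 284.8, n = 8) and from 254.6 to 299.2 CPM on stiff substrates (median 272.9, n = 9), so the ranges overlapped, with 3 of the 9 stiff values (254.6, 255.3 and 262.3 CPM) under the soft range. The averaged soft minus stiff difference was 0.066 on the log2 scale (95% interval 0.0077 to 0.12, adjusted p = 0.169, edgeR), and at low AHA alone it was 0.13 (95% interval 0.034 to 0.23, adjusted p = 0.152). The Sod1 value carries an uncertainty of counting, since 72.5% of its transcript matches the processed pseudogene Gm8566 at 95% identity or more, and that copy held 17364 counts over the 18 libraries beside 27269 for Sod1. With the counts of both loci added, the averaged difference was 0.045 (adjusted p = 0.335). The log2 ratio of Sod2 to Sod1 CPM was -1.17 ± 0.14 on soft (SD, n = 8) and -1.45 ± 0.084 on stiff substrates (SD, n = 9), a description that carries the selection of Sod2. Sod2 itself matched 12 other genes, none over more than 3.29% of its transcript.

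Txnrd1 (ENSMUSG00000020250, chr10:82833951-82897712, plus strand), the cytosolic thioredoxin reductase that returns oxidised thioredoxin to its reduced form with NADPH, was lower on soft substrates. Its level was 538.2, 515.4 and 555.8 CPM on soft gels at low AHA, 523.8, 533.5 and 503.6 CPM at mid AHA, and 539.4 and 480.3 CPM at high AHA. On stiff gels it was 558.7, 583.0 and 563.3 CPM at low AHA, 546.3, 568.2 and 578.9 CPM at mid AHA, and 562.4, 565.3 and 561.5 CPM at high AHA. On soft gels 7 of 8 values fell under the whole stiff range, and the remaining one, replicate 3 at low AHA, lay inside the stiff range.

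Txnrd1 fell by 0.11 on the log2 scale in the averaged soft minus stiff comparison (SE 0.025, 95% interval -0.16 to -0.065, adjusted p = 0.000344, edgeR quasi-likelihood test with Benjamini-Hochberg adjustment over all tested genes), a ratio of geometric means of 0.926. The mean was 523.7 ± 23.7 CPM on soft (SD, n = 8) and 565.3 ± 10.9 CPM on stiff substrates (SD, n = 9). It was the only one of the 9 antioxidant genes other than Sod2 to be called in this comparison, in which 8.59% of all tested genes were called (3.77% higher and 4.82% lower on soft substrates). A count of 1 call among 9 is close to that background and says little of the genes as a group. The median difference over the 9 genes was 0.032 and over all tested genes 0.0011.

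At each AHA concentration alone the Txnrd1 difference did not pass the test. It was -0.082 at low AHA (adjusted p = 0.371), -0.12 at mid AHA (adjusted p = 0.104) and -0.14 at high AHA (adjusted p = 0.131, all by edgeR). The call at high AHA turned on the soft, high AHA libraries: with all 18 libraries the difference was -0.16 (adjusted p = 0.00970), with replicate 2 left out in place of the high ERCC library -0.22 (adjusted p = 0.000591), and with replicate 3 as the only library of its group, assumed to vary like the others, -0.24 (adjusted p = 0.0182). With replicate 2 as the only one it was -0.063 (adjusted p = 0.808). Txnrd1 had the smallest spread of the 10 genes within groups, with an SD of 0.052 on the log2 scale, and the left-out library held 486.7 CPM of it, below the stiff range of 546.5 to 583.3 CPM on the same scale.

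**Figure D2:**
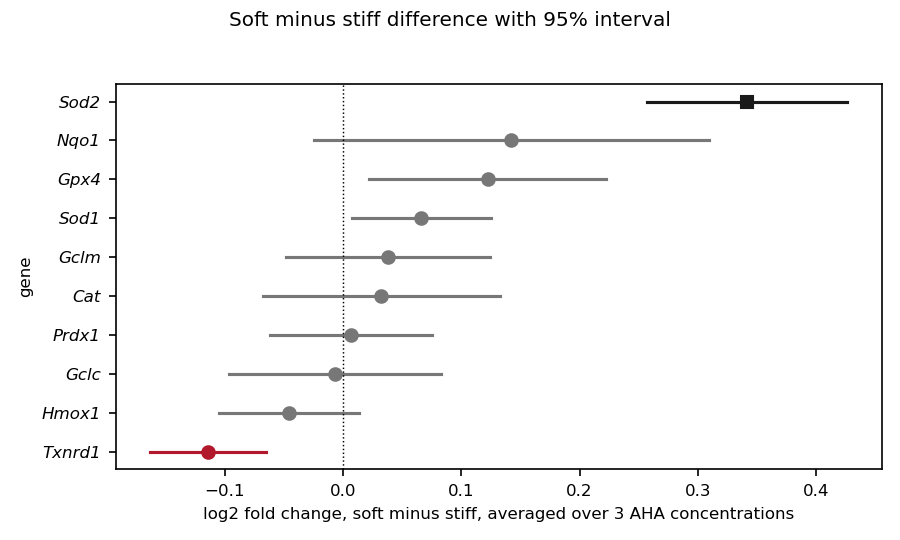
Averaged soft minus stiff log2 fold change (x axis) of the 10 antioxidant genes (y axis), with lines for 95% intervals from the edgeR fit to 17 libraries and a dotted line at 0. The black square is Sod2 (0.34), which was selected on this value and carries no call. Of the 9 genes tested, red marks Txnrd1 (-0.11), which was called, and grey marks the 8 that were not.

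The peroxide-removing enzymes did not pass the test. Gpx4 (ENSMUSG00000075706, chr10:80047166-80056439, plus strand), the glutathione peroxidase that reduces lipid peroxides in membranes, had its highest group at soft, high AHA. There its level was 88.3 and 77.0 CPM, against 70.0, 70.9 and 65.7 CPM at soft, low AHA and 66.5, 67.6 and 75.0 CPM at soft, mid AHA. On stiff gels it was 69.3, 63.8 and 67.2 CPM at low, 63.3, 71.3 and 64.2 CPM at mid and 65.2, 71.5 and 71.9 CPM at high AHA. On the scale of 18 libraries, the left-out soft, high AHA library held 77.0 CPM and the stiff libraries 63.3 to 72.0 CPM. High minus low AHA on soft gels was 0.27 on the log2 scale (SE 0.092, 95% interval 0.085 to 0.45), which did not pass after adjustment (adjusted p = 0.260, edgeR). It was 0.16 without soft, high AHA replicate 2 and 0.36 without replicate 3. The soft minus stiff difference was 0.26 at high AHA (adjusted p = 0.192, and 0.14 without replicate 2) and 0.12 on average (95% interval 0.022 to 0.22, adjusted p = 0.128).

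Cat (ENSMUSG00000027187, chr2:103453849-103485160, minus strand), the peroxisomal enzyme that breaks down hydrogen peroxide, held 72.2 ± 4.69 CPM on soft (SD, n = 8) and 70.2 ± 3.72 CPM on stiff substrates (SD, n = 9), a difference of 0.032 (95% interval -0.068 to 0.13, adjusted p = 0.793, edgeR). Prdx1 (ENSMUSG00000028691, chr4:116685544-116700822, plus strand), a cytosolic peroxiredoxin that thioredoxin recycles, held 215.2 ± 9.91 CPM on soft and 214.6 ± 18.3 CPM on stiff, a difference of 0.0070 (95% interval -0.062 to 0.076, adjusted p = 0.944). Part of the Prdx1 transcript (26.0%) matches the loci Gm7204 and Gm21399, and adding their counts moved the difference to 0.020 (adjusted p = 0.835).

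Of the enzymes that make glutathione, Gclc (ENSMUSG00000032350, chr9:77754535-77794485, plus strand) encodes the catalytic and Gclm (ENSMUSG00000028124, chr3:122245557-122270732, plus strand) the modifier subunit of glutamate-cysteine ligase, the first enzyme of glutathione synthesis. Gclc ran from 81.7 to 93.7 CPM on soft (median 90.6) and from 81.4 to 101.5 CPM on stiff substrates (median 90.3), and its averaged difference was -0.0067 (95% interval -0.096 to 0.083, adjusted p = 0.961, edgeR). Gclm ran from 96.7 to 125.8 CPM on soft (median 115.6) and from 92.1 to 121.6 CPM on stiff substrates (median 111.9), with a difference of 0.038 (95% interval -0.048 to 0.12, adjusted p = 0.698). The levels of both subunits overlapped widely between the stiffnesses. The sign of either difference turned when single libraries were left out. Exons of Gclm overlap Gm17494 on the opposite strand over 4.71% of their length, and Gm6061 on the same strand over 3.88%. The left-out soft, high AHA library held 77.5 CPM of Gclc, below the soft (81.8 to 93.8 CPM) and the stiff libraries (81.4 to 101.6 CPM) on the same scale.

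Nqo1 and Hmox1 are widely used readouts of NRF2 activity. Nqo1 (ENSMUSG00000003849, chr8:107388225-107403206, minus strand), which reduces quinones, was the least counted of the 10 genes, at 76 to 179 counts per library. It held 26.6 ± 2.23 CPM on soft (SD, n = 8) and 24.1 ± 4.17 CPM on stiff substrates (SD, n = 9), a difference of 0.14 (95% interval -0.025 to 0.31, adjusted p = 0.354, edgeR). Its stiff libraries held 27.4, 28.1 and 26.6 CPM at low AHA, 17.1, 23.3 and 28.3 CPM at mid AHA and 19.2, 20.7 and 25.8 CPM at high AHA. The high minus low AHA difference on stiff gels was -0.32 (SE 0.14, 95% interval -0.60 to -0.037) and did not pass after adjustment (adjusted p = 0.772, edgeR). Nqo1 also had the widest spread within groups, an SD of 0.20 on the log2 scale.

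Hmox1 (ENSMUSG00000005413, chr8:75093621-75100589, plus strand), the haem oxygenase, ran from 228.1 to 262.9 CPM on soft (median 252.1, n = 8) and from 247.2 to 278.2 CPM on stiff substrates (median 255.1, n = 9). Its averaged difference was -0.045 (95% interval -0.10 to 0.014, adjusted p = 0.422, edgeR), and 3 of 8 soft values fell under the whole stiff range.

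**Figure D3:**
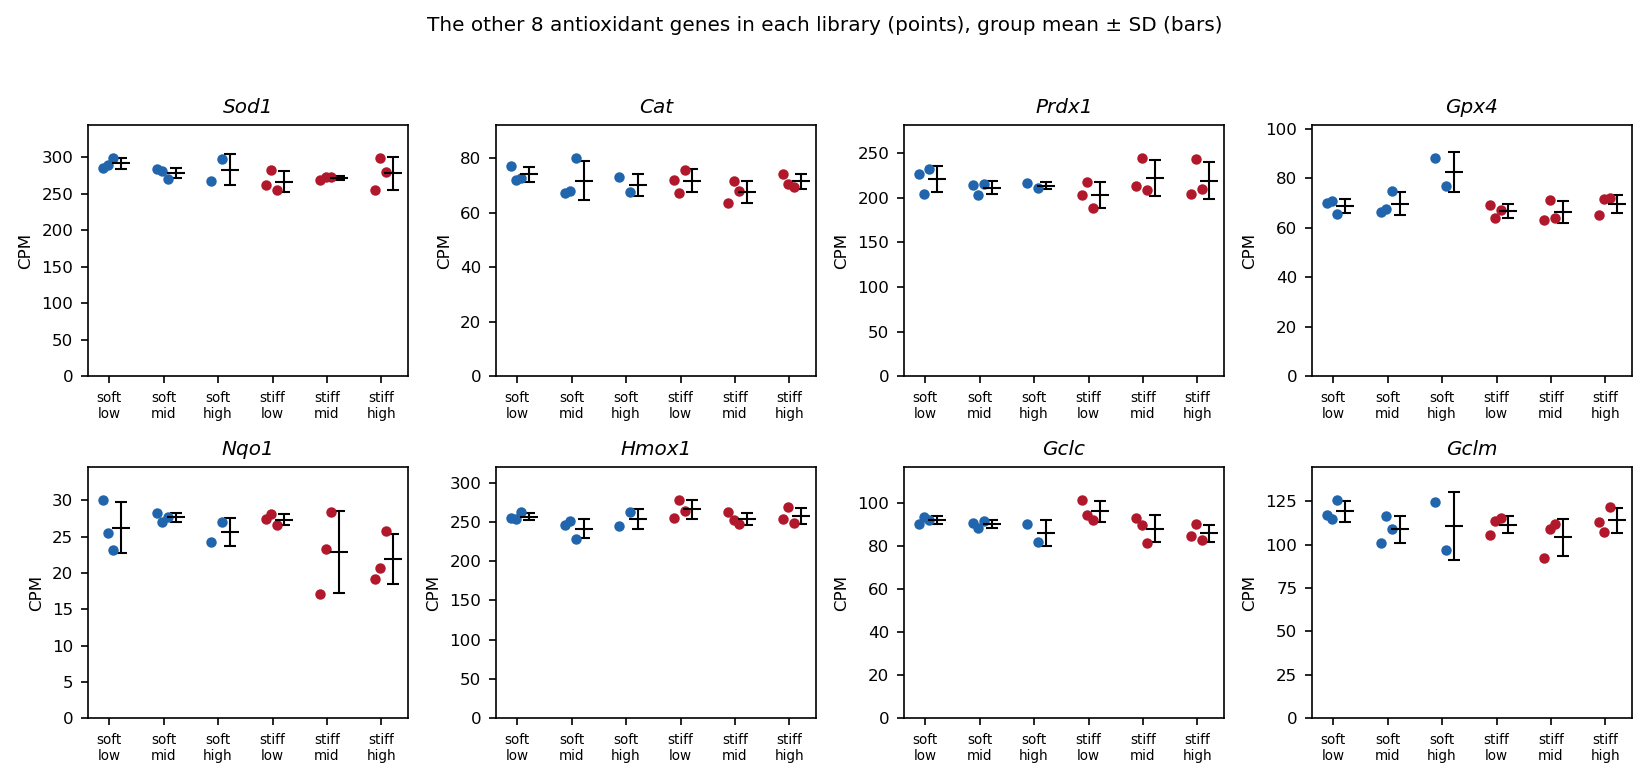
CPM (y axis, from 0) of the 8 antioxidant genes other than Sod2 and Txnrd1 in each of the 6 groups (x axis, stiffness above and AHA concentration below). Points are libraries (blue soft, red stiff) and bars are the group mean ± SD, with 2 libraries in soft high and 3 in every other group. Soft and stiff points overlap in every panel.

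At the 3 AHA concentrations taken alone, edgeR called 0 of the 9 genes other than Sod2 in each soft minus stiff comparison, and DESeq2 also called 0 in each. The share of all tested genes called by edgeR was 3.04% at low, 2.86% at mid and 0.841% at high AHA. At an unadjusted p under 0.05 there were 3 of the 9 genes at low AHA (Sod1, Prdx1 and Txnrd1), 1 at mid AHA (Txnrd1) and 2 at high AHA (Txnrd1 and Gpx4), and the matching shares of all tested genes were 13.1%, 13.6% and 10.5%. Whether the stiffness difference depended on AHA was tested for the 9 genes, of which edgeR called 0 and DESeq2 0, against 0.0298% of all tested genes called by edgeR. At an unadjusted p under 0.05 there was 1 of the 9 (Prdx1, adjusted p = 0.739), against 6.71% of all tested genes.

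Between high and low AHA, edgeR called 0 of the 9 genes other than Sod2 on soft and 0 on stiff substrates, and DESeq2 called 0 in both. Few genes of the whole table were called in these comparisons, 0.253% on soft and 0.00744% on stiff substrates. At an unadjusted p under 0.05 there was 1 gene on soft (Gpx4) and 2 on stiff substrates (Nqo1 and Gclc) of 9, against 8.51% and 6.04% of all tested genes.

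Levels can be set beside each other only per length. Per kb of exon, Hmox1 (145.6 CPM per kb) was highest, followed by Txnrd1 (77.0), Prdx1 (70.6), Sod1 (70.0), Gpx4 (40.6), Cat (27.2), Gclc (23.9), Gclm (17.7), Nqo1 (16.3) and Sod2 (11.2 CPM per kb). The order depended on which length was used. Per kb of the longest coding transcript Sod1 was highest (433.5 CPM per kb), and Sod2 (19.1 CPM per kb) stood above Nqo1 (16.3 CPM per kb), since the exon union of Sod2 and of Sod1 is longer than any of their coding transcripts.

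Of 78 further antioxidant and mitochondrial genes in 7 lists, 76 were tested and Mgst1 and Sod3 were not. Called or not, 34 of the 76 were higher on soft substrates, and a shift of the lists as sets was not tested. By edgeR 3 of the 76 were called higher and 2 lower on soft substrates in the averaged comparison (6.58%, near the 8.59% of all genes), with a median log2 difference of -0.0068 against 0.0011 for all tested genes. DESeq2 called 3 of them (Gstm1, Foxo3 and Lonp1) and 6.99% of all tested genes. Gstm1, a glutathione transferase, rose by 0.35 (SE 0.086, adjusted p = 0.00242, edgeR), from 22.9 CPM on stiff to 28.9 CPM on soft substrates, and was 1 of 13 tested genes called in the list of transferases and quinone, haem and iron genes. Foxo3, the FOXO factor named above, rose by 0.24 (SE 0.041, adjusted p = 2.03e-06), from 111.6 to 131.5 CPM, and was 1 of 9 called in the list of other superoxide genes and factors that act on Sod2. Gstm1 and Foxo3 were called in all 24 alternatives tried for these lists.

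Of 12 mitochondrial matrix and import genes, where SOD2 works, 1 was called higher and 1 lower. Lonp1, the matrix protease, rose by 0.10 (adjusted p = 0.0213, edgeR), and Hspe1, the small subunit of the matrix chaperonin, fell by 0.17 (adjusted p = 0.0194). Each of these calls was lost in 6 of 24 alternatives, for Lonp1 with all 18 libraries and for Hspe1 with DESeq2, among others. Among 12 thioredoxins and peroxiredoxins, 1 was called, Prdx6, a peroxiredoxin that uses glutathione, which fell by 0.081 (adjusted p = 0.0476). Called or not, only 1 of these 12 genes was higher on soft substrates, and the list median was -0.042. At an unadjusted p under 0.05 by edgeR there were 3 of the 12, against 20.5% of all tested genes. The Prdx6 call was lost in 18 of 24 alternatives, DESeq2 and all 18 libraries among them.

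In the remaining lists no gene passed in the edgeR fit to 17 libraries. EdgeR called 0 of 10 NRF2 pathway regulators (3 at an unadjusted p under 0.05), 0 of 12 glutathione enzymes (2 unadjusted) and 0 of 8 genes of NADPH supply (2 unadjusted), and DESeq2 called 0 in each. In this comparison 20.5% of all tested genes had an unadjusted p under 0.05. Their most abundant members differed by 0.061 for Sqstm1, the autophagy adaptor that binds KEAP1 (adjusted p = 0.154), and 0.042 for Nfe2l1, an NRF2 relative (adjusted p = 0.410). Among glutathione genes the values were 0.047 for Gpx1, a cytosolic peroxidase (adjusted p = 0.327), and -0.053 for Slc3a2, a chain of the cystine importer (adjusted p = 0.363). Tkt and Pgd, enzymes of the pentose phosphate pathway, differed by -0.056 (adjusted p = 0.188) and -0.014 (adjusted p = 0.889).

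**Figure D4:**
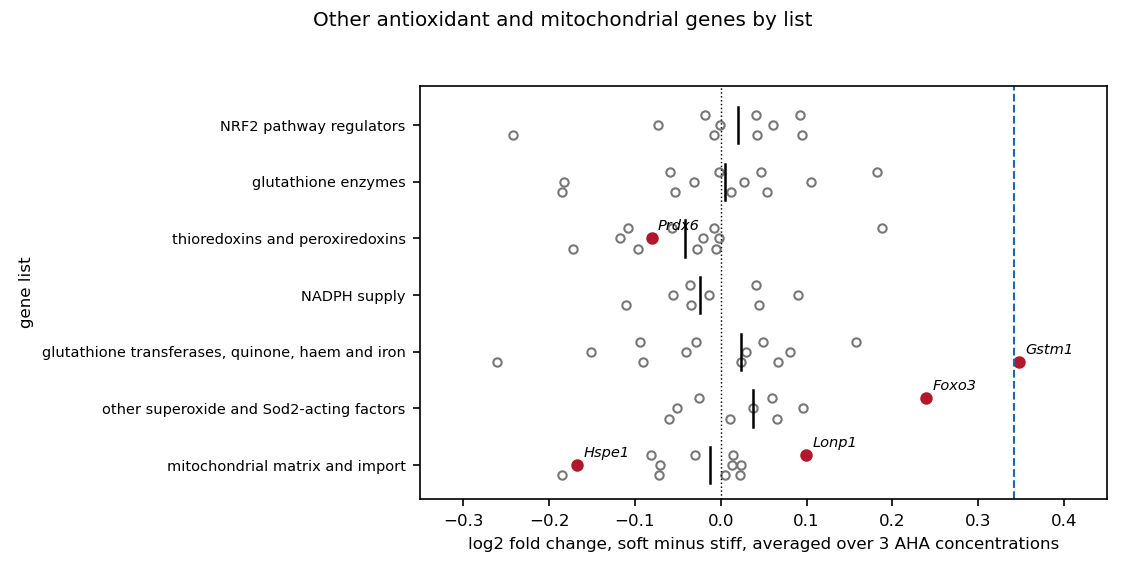
Averaged soft minus stiff log2 fold change (x axis) of the 76 tested genes in 7 antioxidant and mitochondrial lists (y axis). Open grey circles are genes that were not called, filled red circles are the 5 called genes, black ticks are list medians, the dotted line is 0 and the dashed blue line is the value of Sod2 (0.34), which only Gstm1 (0.35) reached.

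The genes whose pattern was most like that of Sod2 were sought by Pearson correlation of log2 CPM over the 17 libraries, among the 9225 tested genes that averaged 10 CPM or more. The highest were Ankrd12 (r = 0.917), Kat6b (0.878), Zfp655 (0.864), Esrrb (0.859) and Fsd1 (0.858), each of which was itself higher on soft substrates, by 0.20 to 0.42 on the log2 scale. These points share the 6 groups, so a stiffness difference in both genes gives a high r. With the group means removed, their r with Sod2 was 0.731, 0.421, 0.381, 0.039 and 0.709 in the same order. Among the antioxidant genes r ran from -0.671 for Txnrd1 to 0.471 for Sod1, and with the group means removed from -0.225 for Nqo1 to 0.362 for Prdx1. These are descriptions over 17 libraries that share depth and scaling.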

How the data were processed

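RNA of mESCs on 6 substrates was sequenced in 18 libraries. The authors prepared libraries with a pico-input mammalian kit, trimmed reads with Trim Galore 0.4.4, aligned them to GRCm38/mm10 with GSNAP and used HTSeq to count them per gene of Ensembl release 81. The authors deposited these read counts raw, without normalisation. The strand setting of HTSeq is not given in the sources used here, so counts of overlapping genes are uncertain. Summary lines (61.5 to 64.0% of column sums, mostly reads not aligned) were left out of library sizes and tests. Groups followed the labels, which gave no batch. Symbols and positions came from GENCODE release 21 of the mouse annotation (GRCm38).

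The members and lists were chosen with earlier results of these data known. Counts of protein-coding genes were filtered by filterByExpr at a minimum of 10, scaled by TMM and modelled in edgeR 4.0.16 (robust quasi-likelihood F test, R 4.3.3) with 1 coefficient per group over 17 libraries, and the biological coefficient of variation was 5.35%. Of the soft libraries at high AHA, the one richest in ERCC reads was omitted by that measure, since the study set aside libraries with a high ERCC share. P-values were adjusted by Benjamini-Hochberg over 13438 genes and called under 0.05. Standard errors came from the F statistic. Replicates differed by more than counting noise in all 18 pairs (chi-square per degree of freedom 1.82 to 3.07). Near copies of member genes were sought among transcripts at 95% identity over 100 bases. Correlations used log2 CPM with a prior count of 2. The fits were tested on simulated data. Named genes were the 10 members, up to 4 called genes of largest change per list or otherwise its 2 most abundant, and the 5 genes most like Sod2 over the libraries. The genes most like Sod2 after removal of the group means are not reported here. Alternatives were other size factors, DESeq2 1.42.0, other filters and gene sets, other choices of library, and each library left out in turn. Adding pseudogene counts was chosen after seeing the data.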

Additional observations from a re-analysis of the deposited data

How the results depend on the processing

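No paired analysis was possible because the labels gave groups no shared replicate numbers, and the numbers used here are only the sample order within a group. The averaged Sod2 difference was 0.32 to 0.37 on the log2 scale in 25 alternatives, with a direction that its selection had fixed, and that of Txnrd1 was called in the same 25 (-0.15 to -0.088, adjusted p from 2.44e-06 to 0.0222). With soft, high AHA replicate 2 left out in place of the high ERCC library, 2 of the 9 other members were called in the averaged comparison (Txnrd1, and Sod1 at 0.093, adjusted p = 0.0217), 1 at high AHA (Txnrd1) and 9 of the pathway genes, while the share of all genes called was 10.3% on average and 2.86% at high AHA. With all 18 libraries 1 member (Txnrd1) was called at high AHA, where 2.58% of all genes were called. DESeq2 called 3 pathway genes and 6.99% of all genes. Leaving out 1 library at a time gave 0 to 1 members at high AHA (1 without soft, high AHA replicate 2, with 0.607% of all genes called and the lone library of its group assumed to vary like the other groups) and 3 to 7 pathway genes (3 without stiff, mid AHA replicate 2, namely Gstm1, Foxo3 and Lonp1, with 7.8% of all genes called). The cause was not tested.

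Some differences near 0 changed sign. High minus low AHA on soft substrates for Sod2 was 0.0089 with all 18 libraries, and 0.0080 or 0.041 with soft, high AHA replicate 2 or 3 left out in place of the high ERCC library. Over single libraries left out it ran from -0.066 to 0.045, on stiff substrates from -0.076 to 0.037, and for Txnrd1 on soft substrates from -0.17 to 0.0099. The averaged soft minus stiff difference ran from -0.0088 to 0.037 for Prdx1, from -0.036 to 0.015 for Gclc and from -0.034 to 0.092 for Gclm. Among averaged differences that kept their sign, Cat went as low as 0.0031 (without soft, mid AHA replicate 3), Sod1 0.041 (without soft, high AHA replicate 3) and Nqo1 0.093 (without stiff, mid AHA replicate 1), and Txnrd1 at low AHA came to -0.052 without soft, low AHA replicate 2. None of the values of Txnrd1, Prdx1, Gclc, Gclm, Cat, Sod1 and Nqo1 in this paragraph passed the test.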
